A study of Mus musculus with 4 samples.

Results

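The receptor genes for glutamate, gamma-aminobutyric acid (GABA) and glycine were examined as sites of transketolase chromatin immunoprecipitation (ChIP) in the mouse retina. They were chosen by gene symbol: the Gria, Grik, Grid, Grin, Grm, Gabr and Glra families with Glrb, which gave 50 of the 26219 genes that have RefSeq transcripts and lie on an autosome, X or Y. Of these 50 genes, 26 encode glutamate receptors, 19 encode ionotropic GABA receptors and 5 encode glycine receptors. By the authors' gene symbol, 222 of 30791 peaks in the induced list (0.721%, exact 95% binomial interval 0.63 to 0.822) and 99 of 18267 peaks in the control list (0.542%, 0.441 to 0.659) were assigned to them. Intervals here cover counting error only.

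Transketolase, which moves carbon units between sugars in the pentose phosphate pathway, was immunoprecipitated from retina of induced Tet-opsin-VEGFA mice and of noninduced Tet-opsin-VEGFA mice, called control here. Both groups carry the transgene and differ in its induction, as the labels give it. The inducing agent, its duration and the animals' age are not given in the labels. The series text describes the model as one of retinal VEGF overexpression and names 2 retinas for each condition, and there was 1 ChIP library and 1 input library per condition. Peak lists hold DNA positions, so the labelled tissue could not be checked against the RNA of its markers. With 1 ChIP library per condition there was no replicate error, no test between conditions was possible, and any difference between the lists compares libraries.

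Glutamate is the transmitter that photoreceptors and bipolar cells release, and GABA and glycine are the inhibitory transmitters of horizontal and amacrine cells. Ionotropic receptors are ion channels that open when the transmitter binds: AMPA, kainate and NMDA receptors for glutamate, GABA-A and rho receptors for GABA, and glycine receptors. Metabotropic glutamate receptors act through G proteins, and one of them, mGluR6, gives ON bipolar cells their response to light. Many of the channel subunit genes have long introns, and the 50 genes had a median span of 160 kb, against 14.3 kb over all genes. Their summed span was 12.6 Mb.

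The deposited symbol of a peak is that of the start site it was assigned to. For some peaks inside several receptor genes, that start site belonged to a microRNA gene inside the receptor gene. The mature sequences of these microRNAs are shown because such peaks are listed under their gene names and not the receptor's. They come from RefSeq on GRCm38.p6 and are written 5′ to 3′, with the seed (bases 2 to 8) in capitals. The 6 sequences have 6 different seeds.
mmu-miR-592-5p: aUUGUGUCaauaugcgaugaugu
mmu-miR-592-3p: uCAUCACGuggugacgcaacau
mmu-miR-346-5p: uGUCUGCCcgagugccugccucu
mmu-miR-346-3p: aGGCAGGGgcugggccugcagc
mmu-miR-105: cCAAGUGCucagaugcuuguggu
mmu-miR-692: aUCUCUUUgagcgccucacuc
The miR-592 sequences lie within Grm8 on the minus strand of chromosome 6, at 27936711 to 27936733 (5p) and 27936672 to 27936693 (3p). The miR-346 sequences lie within Grid1 on the plus strand of chromosome 14, at 34894624 to 34894646 (5p) and 34894662 to 34894683 (3p). The miR-105 sequence lies within Gabra3 (X, 72591547 to 72591569, minus strand), and the miR-692 copy shown lies within Grik3 (chromosome 4, 125504805 to 125504825, plus strand).

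At least 1 assigned peak was listed for 38 of the 50 receptor genes in the induced list (76%), where the share over all genes was 45.4%. In the control list 29 of 50 (58%) had one, where the share over all genes was 34.7%. Long genes collect more peaks, so all genes were sorted into 10 classes of equal size by span. The shares of all genes in the same classes gave 33.8 receptor genes for the induced list and 28.1 for the control list. Peaks assigned to the receptor genes numbered 222 in the induced list and 99 in the control list, and the class means gave 135 and 82.3. With 20 classes, the class means gave 172 and 102. The longest of the 10 classes ran from 97 to 2390 kb and held 27 of the receptor genes, so it matched span only loosely. By peak centres inside the gene there were 138 and 72 peaks. For these, 10 classes gave 93.8 and 62.6, and 20 classes gave 126 and 80.3. With the longer induced list cut to the length of the control list by p, 134 induced peaks were assigned, and the means of the 10 classes gave 78.6. An assigned peak was listed in both lists for 26 genes (23.1% of all genes), in the induced list alone for 12 (22.4% of all genes), in the control list alone for 3 (11.6%), and in neither for 9 (42.9%). Those 9 were Gabra4, Grin1, Glra4, Grin2c, Gabre, Gabrq, Grm6, Gabrd and Grin3b. Grm6, which encodes the mGluR6 of ON bipolar cells, is among them and spans 15.8 kb.

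**Figure D1:**
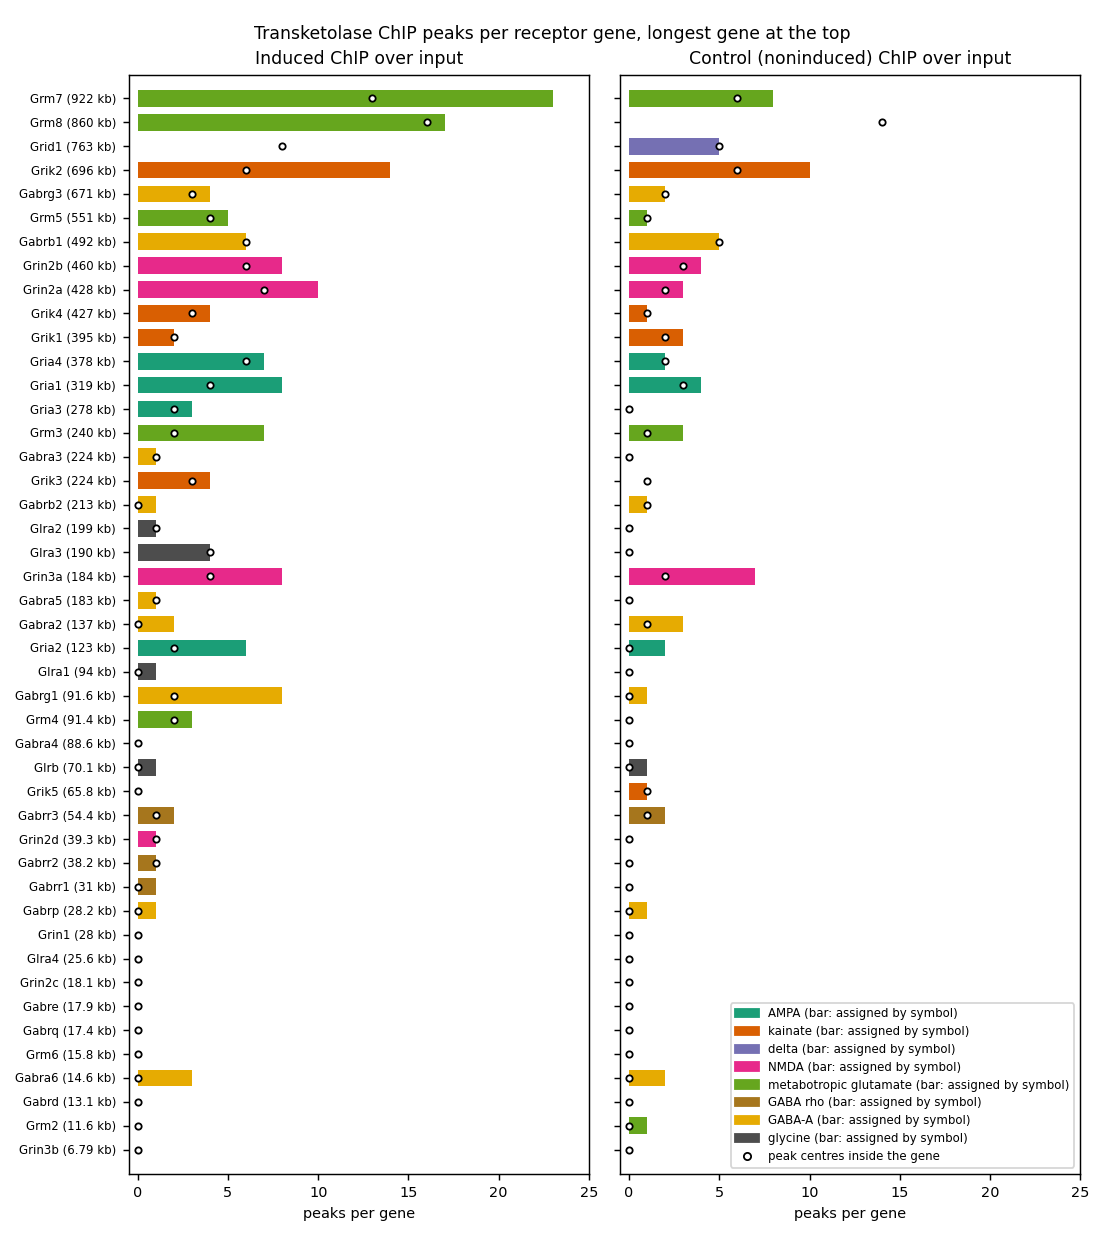
Peaks per receptor gene in the induced list (left) and the control list (right), with genes ordered by span from the longest at the top. Bars give peaks assigned by the authors' symbol, coloured by receptor family, and open circles give peak centres inside the gene. Genes not reported here are not drawn. Grm7 has bars at 23 and 8 peaks, and Grm8 (control) and Grid1 (induced) have circles at 14 and 8 with no bar.

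The peaks were of ordinary strength for their lists. Fold is the authors' enrichment of ChIP over a background, and −log10 p comes from the authors' score. Both are the authors' values and were used within a list only. Receptor gene peaks had a median of 11 tags and 8.59-fold in the induced list, where all peaks had 11 tags and 8.59-fold. In the control list they had a median of 18 tags and 6.35-fold, where all peaks had 18 tags and 5.86-fold. The fewest tags in a listed peak were 10 in the induced list and 14 in the control list, so the median receptor gene peak lay close to the listing minimum. A −log10 p of 10 or more was reached by 7 receptor gene peaks (3.15%) in the induced list, where 6.07% of all peaks reached it, and by 0 in the control list, where 0.838% did. Folds of 20 or more were seen for 3 receptor gene peaks (1.35%) in the induced list and 0 in the control list, where the shares of all peaks were 3.48% and 0.00547%. The authors' false discovery rate of assigned receptor gene peaks was at most 0.64% in the induced list. In the control list it ran from 1.58% to 5.92%, so by that measure the listed control peaks were less secure.

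Grm8 and Grid1 each appeared to have peaks in only one list, and position showed peaks in both. Grm8 encodes a presynaptic metabotropic glutamate receptor and spans 860 kb (chromosome 6, 27275121 to 28135146, mm10). It had 17 assigned peaks in the induced list and 0 in the control list, but 16 induced and 14 control peaks had their centre inside the gene. All 14 of these control peaks were listed as intergenic under Mir592, whose start lay 38.9 to 607 kb from them. They held 14 to 29 tags at 4.89 to 7.79-fold. The 17 peaks assigned to Grm8 in the induced list held 10 to 17 tags at 5.37 to 12.89-fold.

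Grid1 encodes a delta-type glutamate receptor, a relative of the ionotropic receptors that acts at synapses without the usual glutamate-gated current, and spans 763 kb (chromosome 14, 34820003 to 35583387). It had 0 assigned peaks in the induced list and 5 in the control list, while 8 induced and 5 control peaks lay inside it. The 8 induced peaks were listed as intergenic, 4 under Mir346 at 135 to 390 kb and 4 under 4930596D02Rik at 303 to 458 kb. They held 10 to 15 tags at 6.14 to 9.66-fold. The 5 control peaks held 14, 17, 18, 19 and 19 tags at 6.84, 8.31, 4.4, 9.29 and 4.89-fold.

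Such renaming was not particular to these receptors. In the induced list, 1468 protein-coding genes had 3 or more peak centres inside, and 81 of them (5.52%) had no peak under their own symbol. In the control list this held for 69 of 853 (8.09%). Of these genes, 29 of the 81 and 42 of the 69 had an assigned peak in the other list. Over all receptor genes, 10 of the 138 induced peaks inside them and 16 of the 72 control peaks carried another symbol and not the receptor's own. Further cases were a Gabra3 peak under Mir105 in the induced list, and a Grin3a peak under Ppp3r2 and a Grik3 peak under Mir692-2 in the control list. The Grik3 peak (chromosome 4, 125503958 to 125504869) held 27 tags at 7.82-fold and was in the promoter class of the microRNA. It also lay over the pseudogene Ftl2-ps, and the part of repeated sequence in it was not tested. By position, 30 genes had a peak inside in the induced list (29.5% of all genes) and 23 in the control list (22% of all genes), with 19 in both (13.2% of all genes), 11 in the induced list alone (16.4%) and 4 in the control list alone (8.81%).

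**Figure D2:**
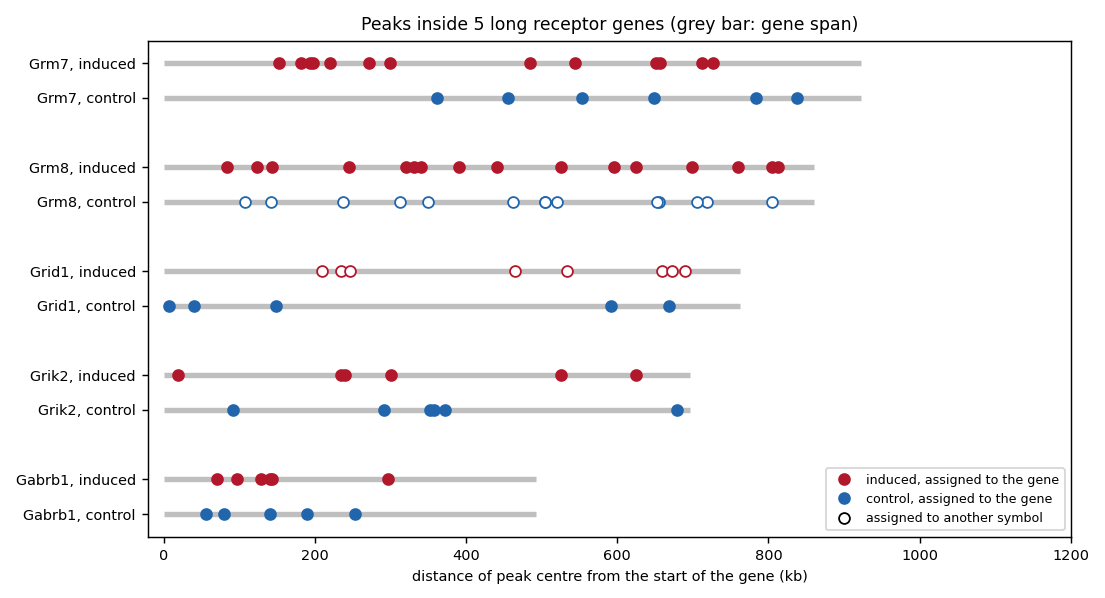
Positions of peak centres inside 5 long receptor genes, as distance in kb from the start of the gene, with the induced list above the control list for each gene. Grey bars give the gene span, filled points peaks assigned to the gene and open points peaks assigned to another symbol. All 14 control points of Grm8 and all 8 induced points of Grid1 are open.

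Among the AMPA receptor genes, which encode the channels of fast glutamate transmission, Gria1 had 8 induced and 4 control peaks, Gria2 had 6 and 2, Gria3 had 3 and 0, and Gria4 had 7 and 2. The Gria1 peaks had 7.52 to 15.03-fold in the induced list and 3.91 to 6.35-fold in the control list. The 15.03-fold induced peak lay in an intron (chromosome 11, 57060584 to 57060994) with 14 tags. The 3.91-fold control peak was in the promoter class (57012986 to 57013622) with 15 tags, centred 258 bp from the start site. Inside the 3 autosomal AMPA genes lay 14.6 induced peaks per Mb (exact 95% Poisson interval 7.56 to 25.6) and 6.1 control peaks per Mb (1.98 to 14.2).

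The kainate receptor genes had 24 induced and 15 control peaks assigned. Grik2, the longest at 696 kb, had 14 induced peaks at 6.44 to 12.89-fold and 10 control peaks at 4.4 to 6.84-fold, and 6 lay inside the gene in each list. Its farthest assigned peaks lay 1643 kb from the start in the induced list and 1500 kb in the control list. Grik1, which carries glutamate responses of OFF bipolar cells, had 2 induced peaks with 11 and 10 tags at 6.44 and 7.52-fold. Its 3 control peaks held 14, 14 and 15 tags at 5.38, 6.84 and 5.38-fold. The authors also listed 1 of the 2 induced Grik1 peaks under 4930590A17Rik. Grik3 had 4 peaks in the induced list and 0 in the control list, Grik4 had 4 and 1, and Grik5 had 0 and 1. An induced peak 19.6 kb before Grik4 (chromosome 9, 42963519 to 42964403), chosen after its value was seen, held 24 tags at 21.48-fold.

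The NMDA receptor genes encode glutamate channels that also admit calcium and need depolarization to open. They had 27 induced and 14 control peaks, which fell on Grin2a, Grin2b, Grin2d and Grin3a. Grin2a had 10 induced peaks at 5.37 to 9.66-fold and 3 control peaks at 5.09 to 6.94-fold. Grin2b had 8 induced peaks with 10 to 17 tags at 7.52 to 10.74-fold, all in introns or before the gene. Its 4 control peaks included the one exon class peak of the receptor genes (chromosome 6, 136170993 to 136172082, 29 tags, 9.29-fold), centred 2008 bp from the start site. Together with a Grid1 intron peak, that was the highest fold of any receptor gene peak in the control list. Grin3a, which encodes a subunit that takes glycine as its ligand, had 8 induced and 7 control peaks. Inside Grin3a (184 kb) lay 4 induced peaks, 21.7 per Mb, the highest density among autosomal receptor genes with 3 or more peaks inside. In the control list 2 lay inside. Grin2d had 1 induced peak and 0 control peaks.

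The metabotropic receptor genes had 62 induced and 17 control peaks assigned, and 44 induced and 26 control peaks by position. The gap between the lists was smaller by position. Counting by position adds the 14 control peaks inside Grm8 that carry the microRNA's symbol. It also leaves out assigned peaks outside the genes, in both lists, such as 10 induced peaks of Grm7. Inside the 8 genes lay 14.2 induced peaks per Mb (10.4 to 19.1) and 8.42 control peaks per Mb (5.5 to 12.3). Grm7 (922 kb), which encodes a presynaptic autoreceptor, had 23 induced peaks at 5.85 to 13.65-fold and 8 control peaks at 4.89 to 7.33-fold, of which 13 and 6 lay inside. Of its 10 induced peaks outside, all lay before the gene, at 162 to 817 kb. Grm8 had 18.6 induced peaks per Mb (10.6 to 30.2) and 16.3 control peaks per Mb (8.9 to 27.3). Among 546 autosomal genes of 300 kb or longer it ranked 51 by induced density and 37 by control density. In the control list the next receptor gene by density was Gabrb1 at rank 133. Grm3 had 7 induced and 3 control peaks, Grm5 had 5 and 1, Grm4 had 3 and 0, and Grm2 had 0 and 1.

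The GABA-A receptor genes, whose products form the main inhibitory chloride channels, had a low density of peaks inside them. The 16 genes had 40 induced and 26 control peaks assigned, and 14 and 10 peaks inside. Per Mb of the 13 autosomal genes, there were 5.62 induced peaks (2.99 to 9.61) and 4.32 control peaks (2.07 to 7.95). All autosomal genes had 14.1 and 9.32 per Mb, above both intervals, but they were not matched for span. Autosomal genes of 300 kb or longer held 11.4 and 7.02 per Mb. Of these, the induced value lay above the GABA-A interval and the control value inside it. Autosomal genes of 100 to 300 kb held 13.3 and 9.48 per Mb, and those of 50 to 100 kb held 14.9 and 10.6. These values lay above both GABA-A intervals. The 13 genes had a median span of 91.6 kb, and only Gabrg3 and Gabrb1 were above 300 kb, so no single range of span matched them. The intervals of all 44 autosomal receptor genes, 9.45 to 13.4 and 4.74 to 7.63, also lay below the values of all autosomal genes.

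Gabrb1, a beta subunit gene of 492 kb, had 6 induced peaks at 8.59 to 12.89-fold and 5 control peaks at 4.89 to 7.33-fold, all in introns. Gabrg1, a gamma subunit gene of 91.6 kb, had 8 induced peaks and 1 control peak, and 2 of the induced peaks lay inside it. Gabra2 had 2 induced peaks, both 9.66-fold and outside the gene, and 3 control peaks, 1 of them in the promoter class (chromosome 5, 71097031 to 71097896, 22 tags, 6.35-fold), centred 1.61 kb before the start site. Of the other GABA-A genes, Gabrg3 had 4 induced and 2 control peaks, and Gabra6 had 3 and 2. Gabrb2 and Gabrp had 1 in each list, and Gabra3 and Gabra5 had 1 in the induced list and 0 in the control list.

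The rho receptor genes, whose subunits form the GABA-gated channels prominent on bipolar cells, had few peaks. Gabrr1 and Gabrr2 each had 1 induced and 0 control peaks. Gabrr3 had 2 in each list. Its induced promoter class peak (chromosome 16, 59406556 to 59406933) lay 637 bp before the start site with 16 tags, 17.18-fold and a −log10 p of 11.7, and was the one promoter class peak of the receptor genes in that list. A second induced peak, in an intron, held 18 tags at 9.75-fold. The control peaks held 24 tags at 7.82-fold, 3.36 kb before the start site, and 20 tags at 6.84-fold in an intron.

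The glycine receptor genes had 7 induced peaks and 1 control peak assigned. Inside them lay 5 induced peaks, 8.65 per Mb (2.81 to 20.2), and 0 control peaks, which allows up to 6.38 per Mb by the same interval. These densities include Glra2 and Glra4, which lie on X. The 3 autosomal genes held 4 induced peaks, 11.3 per Mb (3.08 to 29), and 0 control peaks, which allows up to 10.4 per Mb. Glra3 (190 kb), an alpha subunit gene, held 4 of the 5 induced peaks. Its induced intron peak on chromosome 8 (55973569 to 55974284) held 28 tags at 26.84-fold and lay over the pseudogene Gm7351, whose part was not tested. The other 3 held 12, 12 and 15 tags at 10.74, 12.89 and 9.66-fold. Glra1, the alpha subunit gene known from ganglion and bipolar cell inputs, had 1 induced and 0 control peaks, outside the gene. Glra2 had 1 and 0, and Glrb, the beta subunit gene, had 1 and 1.

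Gene span ordered the counts. Over the 50 genes, Spearman's rho between span and peaks inside the gene was 0.869 in the induced list and 0.793 in the control list. For assigned peaks it was 0.727 and 0.568. These are descriptions over genes of 1 library, which share its depth. A longer gene has more positions where a peak centre can lie, so such a correlation is built into the count. Over all 26219 genes the values for peaks inside were 0.555 and 0.502. These are not a like comparison, because only 29.5% and 22% of all genes held a peak inside and their median span was 14.3 kb.

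**Figure D3:**
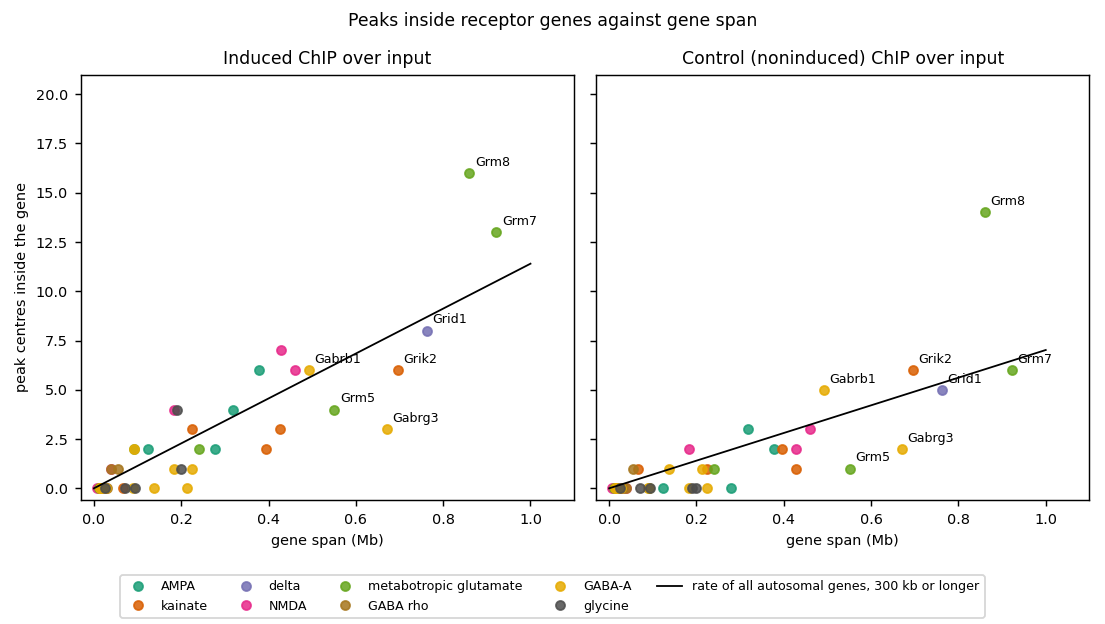
Peak centres inside each receptor gene against its span in Mb, in the induced list (left) and the control list (right), with 1 point per gene coloured by family. The line is the density of all autosomal genes of 300 kb or longer, 11.4 per Mb in the induced list and 7.02 per Mb in the control list. Genes not reported here are not drawn. Grm8 lies above the line in both panels, at 16 and 14 peaks, and Grm7, at 13 and 6 peaks, lies above it in the induced panel and below it in the control panel.

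Per Mb, receptor genes of 300 kb or longer held about as many peaks as other long genes, and shorter ones had lower values with wide intervals. The 15 long autosomal receptor genes held 11.9 induced peaks per Mb (9.82 to 14.4) and 6.84 control peaks per Mb (5.26 to 8.75), where all 546 such genes held 11.4 and 7.02. Of these 15, 9 were above the median gene of that class in the induced list (11.3 per Mb) and 8 in the control list (5.95 per Mb). The shorter bands likewise hold autosomal genes only, for the receptor genes and for all genes. The 9 receptor genes of 100 to 300 kb held 9.81 induced peaks per Mb (5.71 to 15.7) and 3.46 control peaks per Mb (1.27 to 7.54), where all genes of that span held 13.3 and 9.48. The 9 genes of 50 to 100 kb held 7.16 (2.32 to 16.7) and 4.29 (0.886 to 12.5), where all genes held 14.9 and 10.6. The 11 genes below 50 kb held 2 induced peaks and 0 control peaks, 8.17 and 0 per Mb, where all genes held 17.7 and 10.9. These counts are small, and in the induced list the intervals of all 3 shorter bands include the density of all genes. In the control list the value for all genes lay above the interval at 100 to 300 kb and inside it in both shorter bands.

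Over all 44 autosomal receptor genes there were 11.3 induced peaks per Mb (9.45 to 13.4) and 6.06 control peaks per Mb (4.74 to 7.63). The 6 genes on X held 4 induced peaks, 5.25 per Mb (1.43 to 13.4), and 0 control peaks, which allows up to 4.84 per Mb. All X genes were low in both lists, at 2.97 and 0.878 per Mb, and the sex of the animals is not given in the labels.

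**Figure D4:**
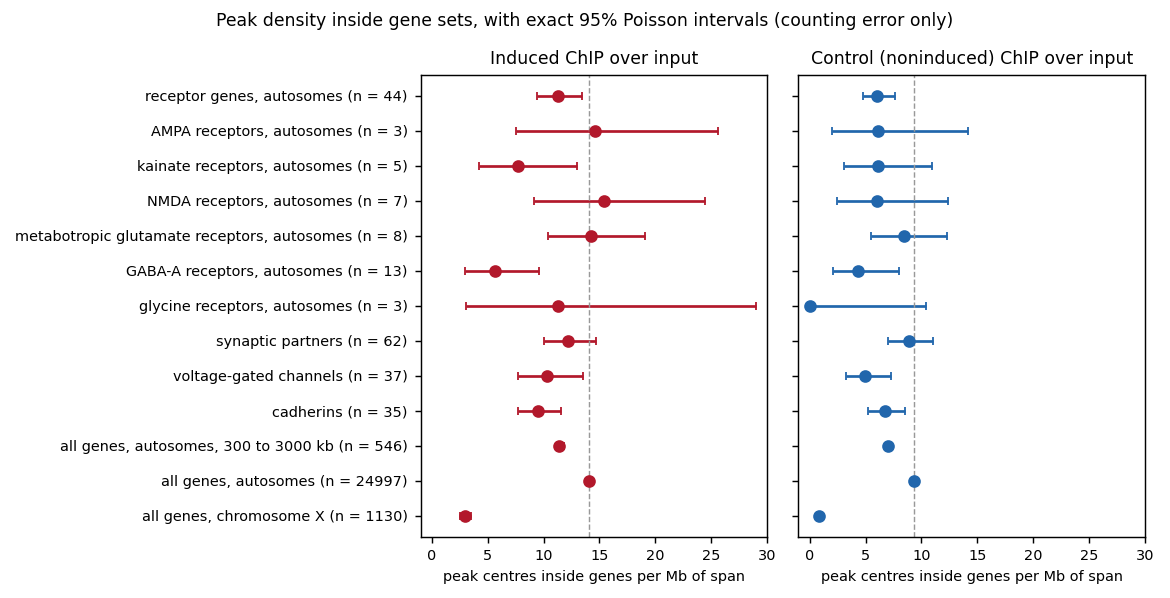
Peak centres inside genes per Mb of summed span for receptor families and comparison sets, in the induced list (left) and the control list (right). Points are densities, bars are exact 95% Poisson intervals for counting error, and the dashed line is the density of all autosomal genes. The GABA-A interval lies wholly below the dashed line in both panels, and the metabotropic interval includes it in both. Also wholly below it in both are all autosomal receptor genes, voltage-gated channels, cadherins, long autosomal genes and X genes.

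Receptor gene peaks were mostly intronic. The intron class held 126 of 222 induced peaks (56.8%, 50 to 63.4) and 54 of 99 control peaks (54.5%, 44.2 to 64.6), where it held 30.8% and 34.2% of all peaks. For long autosomal genes the shares were close to those of other long genes. Of peaks assigned to the 15 long receptor genes, 67.8% (59.6 to 75.2) of induced and 74.6% (62.1 to 84.7) of control peaks were intronic. For the other 531 long genes the shares were 66.9% and 68.6%. Promoter class peaks, centred within 2 kb of a start site, numbered 1 of 222 induced (0.45%, 0.0114 to 2.48) and 2 of 99 control peaks (2.02%, 0.246 to 7.11), where they made up 5.77% and 8.47% of all peaks. Among long autosomal genes these shares were low in general. They were 0% (0 to 2.45) and 1.59% (0.0402 to 8.53) for the 15 receptor genes, and 0.752% and 1.63% for the other 531. With the exon class, 1 receptor gene in the induced list had such a peak (10.1% of all genes) and 3 in the control list (7.67% of all genes). Intergenic peaks made up 38.3% and 38.4% of receptor gene peaks.

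Peaks showed no concentration at either end of the genes. Counted in 4 equal stretches of the gene from its start, the induced list had 39, 38, 33 and 28 of its 138 peaks inside, or 28.3%, 27.5%, 23.9% and 20.3%. The control list had 18, 19, 15 and 20 of 72, or 25%, 26.4%, 20.8% and 27.8%. All intervals of these shares included an equal split. Of the assigned peaks outside their gene, 68 of 94 induced and 25 of 43 control peaks lay on the upstream side, at a median of 156 and 58 kb from the start site. The 26 induced and 18 control peaks on the downstream side lay at a median of 423 and 445 kb. The same split over all genes is not given here, so no upstream lean particular to receptor genes is read from these counts.

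The lists shared few positions in these genes. By an overlap of at least 1 bp, 2 of 222 induced receptor gene peaks (0.901%) overlapped a control peak, where 1.63% of all induced peaks did. Of the control peaks, 1 of 99 (1.01%) overlapped an induced peak, where 2.73% of all did. One pair lay in an intron of Gabrb1, the induced peak at chromosome 5, 71798277 to 71798803 (11 tags, 10.74-fold) and the control peak at 71798081 to 71798844 (20 tags, 6.84-fold). The other lay in Grm8, the induced peak at chromosome 6, 27329485 to 27330059 (11 tags, 6.44-fold) and the control peak, listed under Mir592, at 27329666 to 27330189 (15 tags, 5.9-fold). Apart from these pairs, receptor genes with peaks in both lists had them at different positions.

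Genes whose products work with these receptors also held peaks. A list of 62 synaptic partners was made of transporters, transmitter enzymes, scaffolds and auxiliary subunits. Of these, 42 had an assigned peak in the induced list (67.7%) and 30 in the control list (48.4%). The shares over all genes were 45.4% and 34.7%. They were not matched for span: the partners had a median span of 54 kb, against 14.3 kb over all genes. The partners held 12.2 induced peaks per Mb (10 to 14.7) and 8.86 control peaks per Mb (7.02 to 11). The scaffold gene Dlg2, at 1973 kb the longest of the list, had 30 induced and 26 control peaks inside. Grip1, which encodes an AMPA receptor scaffold, had 13 and 5 inside, and Gphn, which encodes the gephyrin that anchors glycine and GABA-A receptors, had 13 and 6. These were chosen after their values were seen. Voltage-gated channel genes (37) held 10.3 induced and 4.97 control peaks per Mb, and cadherin genes (35) held 9.53 and 6.75. Set beside the intervals of the autosomal receptor genes, the partners' control density of 8.86 per Mb lay above 7.63, and the other densities of these 3 lists lay within.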

How the data were processed

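ChIP-seq peak lists of transketolase in mouse retina were used, 1 for induced and 1 for noninduced Tet-opsin-VEGFA mice, each from 1 ChIP library over 1 input library (4 libraries, none pooled across conditions per the file headers). Reads were aligned with Bowtie2 2.2.7 to mm10 (GRCm38), and FastQC was used, per the submitters' processing notes. What called the peaks, the handling of reads with several matches and the estimate of the background are not given in the sources used here. Per the file headers, each deposited count is the whole number of ChIP tags in a peak, not normalized. The fold enrichment is the authors' deposited ratio over background. The authors deposited a score, 10 times the −log10 p-value, given here as −log10 p, and a false discovery rate in percent, used here only to read the peaks. Total depth is unknown: the files give tags in peaks only, 472950 in the induced and 351574 in the control list. A further 3 sheets without values were not used.

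Peaks were counted once per gene and list, by the authors' symbol (assigned) or by a peak centre inside the gene. Spans came from a RefSeq table of GRCm38.p6. Of the 41 receptor genes with a span in the peak files, 35 were within 5% of the table's. The members and all lists were chosen with earlier results of these data known. The named genes were the 10 with most assigned peaks, those with promoter or exon class peaks, the highest fold in each list, overlaps between lists, the 3 densest autosomal genes with at least 3 peaks inside in 1 list, and Grm6, Gabrr1, Gabrr2, Gabrr3, Glra1 and Grik1, with other names chosen after their values were seen. The bands of span in kb, the ranks and the class shares of long genes were chosen after seeing the data. Intervals are exact 95% (Clopper-Pearson or Poisson). No test and no p-value was computed. The counting was tested on simulated data. Counting ran in Python 3.11.15 with numpy 2.4.6, pandas 2.3.3, matplotlib 3.10.9 and scipy 1.17.1. Alternatives were a stricter p, lists of equal length, assignment by position, fewer classes of peak, and leaving out pseudogene peaks, strong peaks or X genes. Some genes that fall under the rule are counted in totals and are not reported here by name.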

Additional observations from a re-analysis of the deposited data

How the results depend on the processing

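No paired analysis was possible because only 1 ChIP library stood for a condition, and for the same reason no replicate could be left out. Values are for the induced and then the control list. Requiring a −log10 p of at least 10 left 6 and 0 receptor genes with 7 and 0 assigned peaks (span classes gave 5.01 and 0.574 genes, 5.77 and 0.58 peaks), 0 genes in both lists, 0.316 and 0 peaks inside per Mb, 0 and 0 overlapping peaks, an induced intergenic share of 14.3% and an induced Spearman's rho with span of 0.197. At that limit no control class shares or rho could be computed. With the induced list cut to the length of the control list by p, 134 induced peaks were assigned (means of the 10 classes 78.6), with 7.2 inside per Mb and 1 overlapping. By position, 138 induced peaks were counted. With promoter, exon and intron classes only, 127 and 57 peaks were assigned, 16 genes were in both lists, and the control rho was 0.713. Weighting every gene equally gave an induced intron share of 48.4%. The cause of these shifts was not tested, and those other than the last 2 come with fewer peaks being counted. The other 112 planned and all 12 added alternatives kept each value within 1.5 times for a count, its interval for a share or density, or 0.1 for rho, among them leaving out pseudogene peaks, peaks of 20-fold or more, and X genes. The depth sets which regions reach the listing minimum in each list, so a gene without a listed peak is not shown to be free of transketolase.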
